A study of Mus musculus with 2 samples.

Results

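The 6 probes described here measure microRNAs (miRNAs) that are made without the nuclear enzyme Drosha: mmu-miR-320-3p, mmu-miR-484, mmu-miR-877-5p, mmu-miR-877-3p, mmu-miR-1224-5p and mmu-miR-1224-3p, named below without the species prefix. They were chosen by name from the 1900 miRNA probes of the array, with earlier results of these data known, and each had 1 spot per array. The comparison was between mouse ovarian tumours under bevacizumab, an antibody raised against the human vessel growth factor VEGF-A, and under control IgG. All mice were C57BL/6, were 5 weeks old when bought, and carried ID-8 LUC2, a luciferase-marked mouse ovarian cancer line injected into the peritoneal cavity as 2000000 cells. Bevacizumab or control IgG was given at 5 mg/kg, 2 times a week, from day 14, and the mice were killed at day 42. There was 1 array per treatment. Neither Drosha nor its partners were altered in any mouse, and the arrays do not measure them.

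Most miRNAs begin as a hairpin inside a long primary transcript, which Drosha and its partner DGCR8 cut in the nucleus before Dicer trims the hairpin in the cytoplasm. The miRNAs described here skip the first cut. The hairpins of miR-320 and miR-484 are transcribed as short capped RNAs whose start is the transcription start itself. Those of miR-877 and miR-1224 are mirtrons, short introns that the spliceosome releases whole and that fold into a hairpin once debranched. All of them still need Dicer. In mouse, miR-320 is known for acting on a heat shock protein in heart muscle and miR-484 for acting on the mitochondrial fission factor Fis1, and both are used as reference miRNAs in studies of body fluids.

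RefSeq sequences (build GRCm38.p6) are given for the 5 members that have one, to show their seeds and base composition. They are printed 5′ to 3′, and capitals in the mature miRNAs mark the seed, bases 2 to 8, which pairs with target transcripts. miR-484 lies on the plus strand at chr16:14159630-14159651, miR-877-5p at chr17:35960795-35960814 and miR-877-3p at chr17:35960731-35960752 on the minus strand, miR-1224-5p at chr16:20604452-20604472 and miR-1224-3p at chr16:20604516-20604536 on the plus strand.
miR-484: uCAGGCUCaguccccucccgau
miR-877-5p: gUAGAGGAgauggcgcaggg
miR-877-3p: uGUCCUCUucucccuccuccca
miR-1224-5p: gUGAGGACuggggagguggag
miR-1224-3p: cCCCACCUcuucucuccucag
The 5 seeds all differ, and 0 of the other mature mouse miRNAs in this RefSeq table shared any of them, so these miRNAs form no seed family. All 5 are rich in G and C, from 59.1% in miR-877-3p through 61.9% in miR-1224-3p, 63.6% in miR-484 and 65% in miR-877-5p to 66.7% in miR-1224-5p. The 5p arms are purine-rich (80.0% A and G in miR-877-5p, 81.0% in miR-1224-5p), and the 3p arms are pyrimidine-rich (90.9% C and U in miR-877-3p, 85.7% in miR-1224-3p).

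The mirtron hairpins begin and end like introns. Below, capitals mark the first and last 2 bases of the hairpins Mir877 (chr17:35960730-35960814, minus strand) and Mir1224 (chr16:20604452-20604536, plus strand), each 85 bases long.
Mir877: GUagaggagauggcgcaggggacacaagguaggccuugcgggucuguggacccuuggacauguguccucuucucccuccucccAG
Mir1224: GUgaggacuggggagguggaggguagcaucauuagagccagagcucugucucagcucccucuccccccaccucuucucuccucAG
Both open with GU and close with AG, the letters of a splice donor and acceptor. Of 1005 mouse hairpins in the RefSeq table, 30 (2.99%) had both ends so, against 2 of 135 (1.48%) numbered Mir1 to Mir200 and 21 of 180 (11.7%) numbered Mir6896 to Mir7094. miR-877-5p and miR-1224-5p start at the first base of their hairpin, miR-1224-3p ends at its last base and miR-877-3p ends 1 base before it. Mir877 lies within the gene Abcf1 and Mir1224 within Vwa5b2. The hairpins of miR-320 and miR-484 overlapped no protein-coding gene in this annotation. The nearest to Mir320 was Polr3d, 38 bases away, and the nearest to Mir484 was Marf1, 347 bases away.

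All 6 probes were detected on both arrays, that is, their spots exceeded the mean of the blank spots by 2 SD. Over all probes the bevacizumab array detected 940 of 1900 and the control array 1416, with 917 detected on both. The blanks read 185 ± 4.03 units on the bevacizumab array and 72.8 ± 0.828 units on the control array (trimmed mean ± SD over spots), so a faint signal was less certain on the bevacizumab array. Of the tissue markers, the hepatocyte miR-122-5p was detected on neither array, and of the epithelial miR-200a-3p, miR-200b-3p and miR-200c-3p the bevacizumab array detected miR-200b-3p and the control array all 3. After the normalization described below, markers of vessel wall and blood cells were lower on the bevacizumab array. The log2 difference was -2.87 for the endothelial miR-126a-3p, -3.72 for the smooth muscle miR-143-3p and -2.05 for miR-145a-5p of the same cells, and -0.81, under the 2-fold size, for the myeloid miR-223-3p. It was -1.67 for miR-200b-3p. The leukocyte miR-142a-3p and the red cell miR-144-3p, detected on the control array alone, had bounds of 2.82-fold and 3.18-fold lower, and miR-200a-3p and miR-200c-3p of 3.99-fold and 1.87-fold lower. With local background correction miR-126a-3p was at 0.62, miR-143-3p at 0.49, miR-200b-3p at 0.32 and miR-200a-3p at 0.31. On the control array each of these spots read under its own local background (895 against 1162 units for miR-126a-3p). Under the same correction miR-145a-5p was at -2.48 and miR-223-3p at -0.66, both still lower on the bevacizumab array. The part of these cell types in the differences below was not tested. With 1 array per group there was no spread between animals, no test was possible, and every difference below compares these 2 arrays. The only measured error is the spread of control probes printed in 8 spots each, whose scatter corresponds to 0.158 (SD) on the log2 difference of 1 probe and covers spot-to-spot error of bright spots alone. In bulk tumour RNA, fewer cells of a type and less RNA per cell cannot be told apart.

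The capped miRNAs showed nearly the same ratio between the arrays. miR-320-3p stood 64.1 units above the blanks on the bevacizumab array and 36.8 units above them on the control array. miR-484 stood at 66.3 units on the bevacizumab array and 37.3 units on the control array. Their signal as measured was thus higher on the bevacizumab array, 1.74 times for miR-320-3p and 1.78 times for miR-484, which is close to the 1.77 times of the median miRNA detected on both arrays.

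The mirtron arms spanned a wider range of ratios. Spot brightness depends on each probe, so it says nothing of which miRNA was more abundant. miR-1224-5p, the brightest of the 6 spots, stood 259 units above the blanks on the bevacizumab array and 109 units on the control array, 2.39 times as high. miR-877-5p stood at 28.7 units on the bevacizumab array and 9.41 units on the control array, 3.05 times as high. Moving each signal by 1 SD of the blanks gave ratios from 2.33 to 2.44 for miR-1224-5p and from 2.41 to 3.81 for miR-877-5p. These 2 arms from the 5′ side of their hairpins were the only members, 2 of 6, whose measured ratio exceeded 2. Ratios of that size were common in the signal as measured: 373 of the 917 miRNAs (40.7%) reached 2. Passing 2 thus does not set these arms apart from other miRNAs.

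The 3p arms of the mirtrons were dimmer. miR-1224-3p stood 21.7 units above the blanks on the bevacizumab array and 12.4 units on the control array, a ratio of 1.75 (1.33 to 2.22 when moved by 1 blank SD). miR-877-3p stood at 8.81 units on the bevacizumab array, within 5 SD of its blanks, and at 6.96 units on the control array. Its ratio of 1.27 spanned 0.614 to 2.09, so its direction is not settled at this signal.

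**Figure D1:**
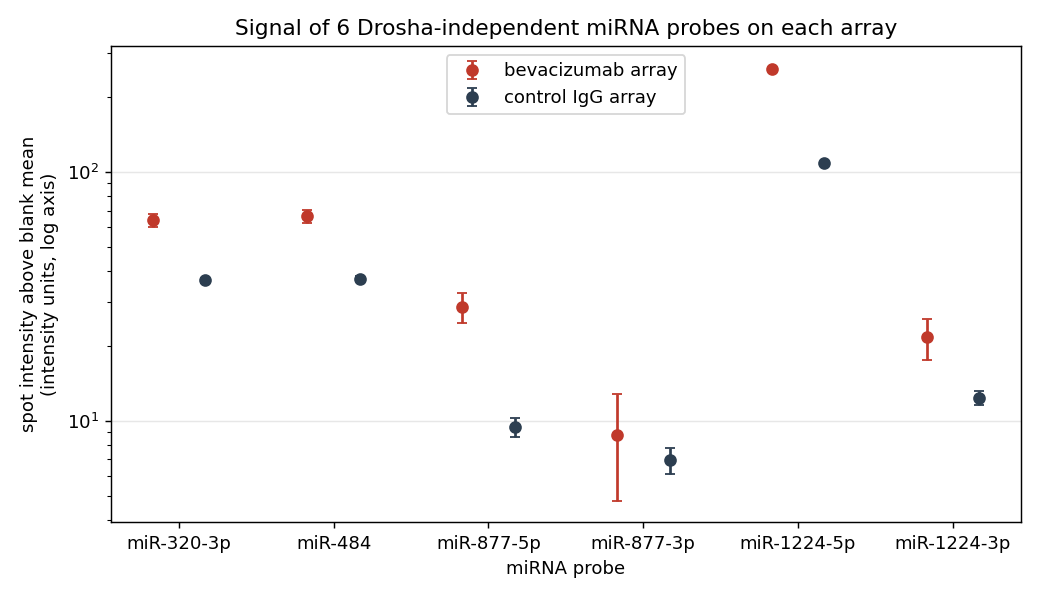
Spot intensity above the mean of the blank spots (intensity units, log axis) for the 6 probes, on the bevacizumab array (left of each pair) and the control IgG array (right). Bars are 1 SD of the blank spots. All 6 points are higher on the bevacizumab array before normalization, and the bars overlap for miR-877-3p alone.

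After normalization none of the 6 differed by 2-fold. The intensities were corrected against the blank spots, given an offset of 50 units and quantile-normalized between the arrays, and differences are log2 values, bevacizumab minus control. The offset shrinks the difference of dim miRNAs. The difference was 0.36 for miR-320-3p and 0.37 for miR-484, 1.28-fold and 1.29-fold higher on the bevacizumab array. It was 0.34 for miR-877-5p (1.27-fold) and 0.97 for miR-1224-5p (1.96-fold), just under the 2-fold size. The 3p arms lay at 0.017 for miR-877-3p and 0.12 for miR-1224-3p. Both values are smaller than the repeat-spot SD of 0.158, but that SD comes from bright spots without the offset. It does not give the error of spots this dim. Thus 0 of 6 were at least 2-fold higher, where 10.5% of the 917 miRNAs were. Likewise 0 of 6 passed that size downward, against 11.6% of the 917. The median over the 6 was 0.35, beside 0.14 over all 917.

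Among other miRNAs made by side routes the differences varied. Of the other reported mirtron arms, miR-702-5p (log2 0.062), miR-1981-5p (0.060) and miR-702-3p (-0.29) were detected on both arrays and within 2-fold, and miR-1981-3p was detected on the control array alone and was too dim for a bound. In the authors' deposited table the log2 difference of miR-702-3p was -1.82, more than 2-fold lower on the bevacizumab array. Both arms of miR-664, which is cut from a small nucleolar RNA, were within 2-fold (0.14 for miR-664-5p and 0.18 for miR-664-3p). miR-1839-3p, also reported to come from a small nucleolar RNA, stood 7.87 units above the blanks on the bevacizumab array, which is below detection, and 114 units above them on the control array. It was at least 2.87-fold lower on the bevacizumab array, a bound set by the dimmest level detected there. Corrected by the local background of each spot in place of the blanks, its difference was 0.26. miR-1839-5p, also detected on the control array alone, had a bound of 1.14-fold. miR-320-5p, the other arm of the mir-320 hairpin, was detected on the control array alone and was too dim for a bound. miR-451a, a red cell miRNA that needs Drosha and skips Dicer instead, was 7.17-fold lower (log2 -2.84).

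Most canonical miRNAs of like brightness lay below 5 of the 6 members. Canonical here means let-7 and miRNAs with catalogue (miRBase) numbers up to 200, which are cut by Drosha as far as known: 294 probes, of which 138 were detected on both arrays. Over those 138 the median difference was -1.01, and 70 (50.7%) were at least 2-fold lower. Corrected by local background in place of the blanks, the 138 had a median of 0.088. The lower level of this class was thus not seen under that correction. Of the 138, 18 (13.0%) were past 2-fold downward and 19 (13.8%) upward, against 5.13% and 5.23% of all 917. Each member was set beside the canonical miRNAs whose geometric mean over both arrays lay within 2-fold of its own. For miR-320-3p there were 35 of these, with a median of -0.92, and 31 of them lay below it. For miR-484 there were also 35, with the same median, and 31 lay below it. In both windows 17 of the 35 were at least 2-fold lower.

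**Figure D2:**
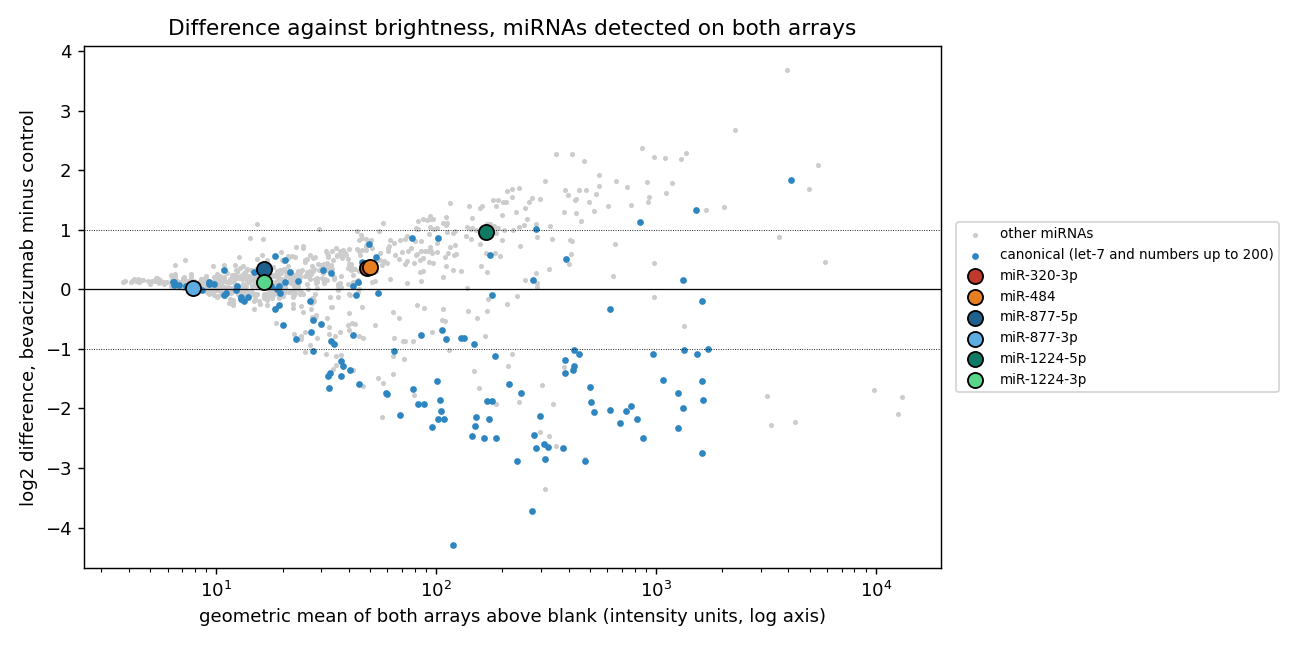
Log2 difference, bevacizumab minus control, against the geometric mean of both arrays above the blanks (intensity units, log axis) for the 917 miRNAs detected on both arrays. Canonical miRNAs (blue) spread down to -4.28, while the 6 Drosha-independent probes (large points) lie between 0.017 and 0.97, among the other miRNAs (grey). Dotted lines mark 2-fold.

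The lowest and the highest canonical miRNA of the miR-320-3p and miR-484 windows are shown with their seeds in capitals because they differ in base composition. miR-10a-5p (chr11:96317186-96317208, plus strand), from the Hoxb gene cluster, stood 26.9 units above the blanks on the bevacizumab array and 338 units on the control array and was 4.99-fold lower (log2 -2.32). miR-125b-1-3p (chr9:41581980-41582001, plus strand), the less used arm of its hairpin, stood at 131 units on the bevacizumab array and 45.8 units on the control array (log2 0.87).
miR-10a-5p: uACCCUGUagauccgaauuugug
miR-125b-1-3p: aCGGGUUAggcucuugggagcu
Their G and C content was 43.5% and 59.1%, the first well under and the second within the range of the members printed above. With local background correction miR-10a-5p was at -1.96 and miR-125b-1-3p at 0.13. Not every window showed such a contrast. In the windows of miR-877-5p and miR-1224-3p the lowest, miR-194-5p, had 45.5% and the highest, miR-135a-1-3p, 59.1%. In the miR-877-3p window the lowest, miR-125b-2-3p, and the highest, let-7d-3p, both had 50%.

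The contrast was widest for miR-1224-5p, the brightest member. Its 38 canonical neighbours in brightness had a median of -1.99, and 27 were at least 2-fold lower. They ran from the striated muscle miRNA miR-1a-3p (-4.28) to miR-92b-5p (1.02), and 37 of the 38 lay below miR-1224-5p. miR-1a-3p was near the detection limit on the bevacizumab array, and on the control array its spot read 1421 units, under its own local background of 1485 units. With local background correction the difference of miR-1a-3p was 0.43 and that of miR-92b-5p -0.33, and 29 of the 38 lay below miR-1224-5p. For the dimmer members, where the offset compresses every difference, the contrast was small. The 37 canonical neighbours of miR-877-5p had a median of -0.052 and ran from miR-194-5p (-1.65) to miR-135a-1-3p (0.56), and 35 lay below it. The spot of miR-194-5p was within 5 SD of the blanks on the bevacizumab array. With local background correction miR-194-5p was at 0.22. For miR-1224-3p, 28 of 36 lay below (median -0.034, the same extremes). For miR-877-3p, 8 of 19 lay below (median 0.066, from miR-125b-2-3p at -0.20 to let-7d-3p at 0.33). So 5 of the 6 members lay above the median of canonical miRNAs of like brightness. miR-877-3p lay under it by less than the repeat-spot SD, which was measured on bright spots.

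**Figure D3:**
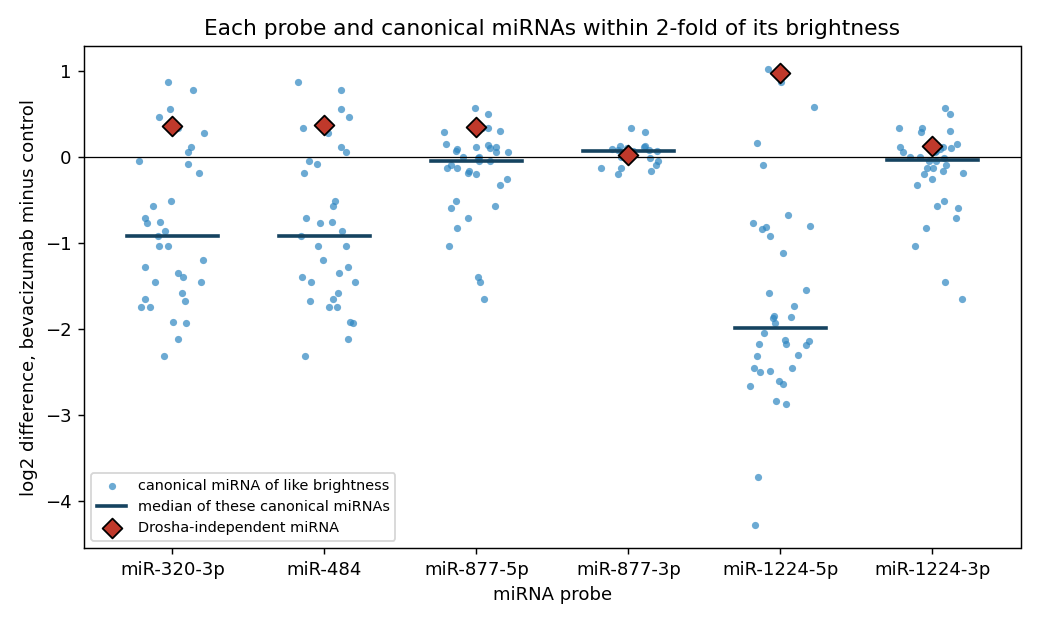
Log2 difference, bevacizumab minus control, of each Drosha-independent probe (diamond), with the canonical miRNAs within 2-fold of its brightness (points) and their median (bar). The gap to the median is widest for miR-1224-5p (0.97 against -1.99), and absent for miR-877-3p (0.017 against 0.066).

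The members lay within the range of other miRNAs of like brightness. Against all non-member miRNAs of like brightness, canonical ones included, 58.1% lay below miR-320-3p, 58% below miR-484 and 88.0% below miR-877-5p. The share was 22.1% below miR-877-3p, 67.9% below miR-1224-5p and 51.6% below miR-1224-3p. miRNAs from miR-201 to miR-500, the range that holds miR-320 and miR-484 themselves, had medians near 0 in the same windows, at -0.10 for miR-320-3p, -0.075 for miR-484 and -0.0093 for miR-1224-5p. Over all 105 miRNAs of that range detected on both arrays the median was 0.11. Of them 9 (8.57%) were at least 2-fold lower, against 50.7% of the 138 canonical miRNAs. No test was possible for these comparisons, and the part of Drosha dependence in the differences was not tested.

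Base composition moved with the difference. Among 118 canonical miRNAs detected on both arrays and with a RefSeq sequence, the difference correlated with the share of G and C bases (Spearman's rho 0.71, Pearson's r 0.70, across miRNAs of the same 2 arrays, which are not independent replicates). The 37 with under 45% G and C had a median of -2.03, and 32 of them were at least 2-fold lower. The 54 with 45% to 55% had a median of -0.92. The 27 with over 55% had a median of 0.12, and 1 of them was at least 2-fold lower. All 5 members with a sequence fall in that last range. Taken singly among the 118, G gave a rho of 0.088, C 0.41 and A -0.40. Over all 785 miRNAs with a sequence rho was 0.36 for G and C together, with 0.42 for G alone and -0.19 for C alone.

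When canonical miRNAs were matched on G and C content within 10 percentage points as well as on brightness, a comparison added after the data were seen, 4 of the 5 members with a sequence lay above the median. The canonical medians were 0.057 for miR-484 (n = 9, 7 below it), -0.015 for miR-877-5p (n = 13, 11 below it) and 0.075 for miR-877-3p (n = 14, 5 below it). For miR-1224-3p the median was -0.034 (n = 16, 12 below it), and for miR-1224-5p it was 0.36 over only 4 miRNAs, 3 of them below it. The part of base composition in the differences was not tested beyond these values.

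**Figure D4:**
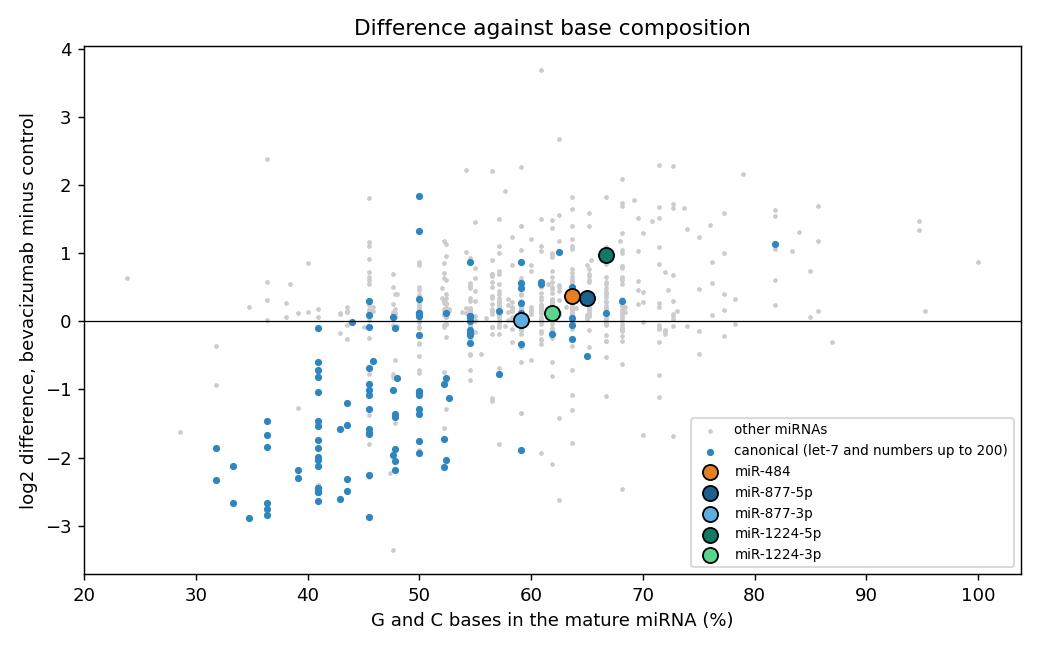
Log2 difference, bevacizumab minus control, against the share of G and C bases in the mature miRNA (%) for canonical miRNAs (blue, n = 118), other miRNAs (grey) and the 5 members with a RefSeq sequence. The canonical miRNAs under 45% have a median of -2.03 and those over 55% a median of 0.12; the members lie between 59.1% and 66.7%.

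The canonical miRNAs whose 2 normalized levels came nearest to each member's were found by their distance over both arrays, which also makes their differences like the member's. They were miR-187-5p for both miR-320-3p and miR-484 (distances of 0.080 and 0.082 log2 units over the 2 arrays), miR-139-3p for miR-877-5p (0.070), miR-29b-2-5p for miR-877-3p (0.031) and miR-129-1-3p for miR-1224-3p (0.016). For miR-1224-5p the nearest was miR-128-2-5p, at a distance of 0.29.

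In both mirtron hairpins the 5p arm had the higher difference. The gap was 0.85 log2 units in miR-1224 and 0.32 in miR-877, and 0.45 and 1.27 in the signal as measured, without offset or normalization. The 5p arm was also the brighter spot in both, so the offset affects the arms unequally. The mirtron-like miRNAs from miR-6896 to miR-7094 leaned the same way: in 76 of 97 hairpins with both arms detected on both arrays the 5p arm was above the 3p arm, by a median of 0.34. Without normalization that count was 62 of 97, and with local background it was 61 of 97, by a median of 0.12. In the main processing the 5p arm was above in 137 of 207 non-member hairpins (66.2%), the mirtron-like and canonical ones included. Among canonical hairpins it was above in 12 of 23. The differences between these shares were not tested. Of the mirtron-like 5p arms 32 of 166 were at least 2-fold higher (median 0.35), and of the 3p arms 0 of 112 (median 0.099), beside 10.5% of all 917 miRNAs. With an offset of 0, 78 of the 166 5p arms (47.0%) and 24 of the 112 3p arms (21.4%) passed that size, beside 33.4% of the 917. Without normalization 96 of the 5p arms (57.8%) and 39 of the 3p arms (34.8%) did, beside 40.7%. With local background 8 of the 5p arms (4.82%) and 0 of the 3p arms did, beside 5.23%. In the main processing miR-877-5p (0.34) and miR-877-3p (0.017) lay near the medians of 0.35 and 0.099.

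The sign of the members' differences depended on how the arrays were scaled, and moved with the median of all miRNAs. In the authors' deposited table, which divides the blank-subtracted intensity of each array by a factor of its own, miR-320-3p read 52.7 on the bevacizumab array and 72.8 on the control array, 1.38-fold lower. miR-484 read 54.5 on the bevacizumab array and 73.9 on the control array, 1.36-fold lower. miR-1224-5p read 213 on the bevacizumab array and 215 on the control array, nearly equal. The 3 dimmest spots differed in direction: miR-877-5p read 23.6 on the bevacizumab array against 18.6 on the control array (1.27 times), miR-1224-3p 17.8 on the bevacizumab array against 24.5 on the control array (1.38-fold lower), and miR-877-3p 7.2 on the bevacizumab array against 13.8 on the control array (1.92-fold lower). None passed 2-fold in that table, where the share of the 917 miRNAs past that size was 2.94% upward and 32.4% downward, and the median of all was -0.45. Scaled to the 5 bright control probes, all 6 were below 0, from -0.67 for miR-877-5p to -1.93 for miR-877-3p, and 5 of 6 were at least 2-fold lower, as were 70.7% of all 917, whose median was -1.45. Under 3 other alternatives miR-877-5p and miR-1224-5p passed 2-fold upward: 2 of 6 with an offset of 0 (33.4% of the 917), 2 of 6 with the blank mean subtracted before quantile normalization (34.1%) and 2 of 6 without normalization (40.7%). Relative to the median of all miRNAs, miR-1224-5p lay 0.43 to 0.83 above it in the 9 ways of processing tried, and miR-877-5p 0.16 to 0.80 above it. miR-484 lay between -0.10 and 0.23 of it, and miR-877-3p was below it in each, by up to 0.50. miR-320-3p lay between -0.11 and 0.54 of it, and miR-1224-3p between -0.16 and 0.0052. No normalization, control-probe scaling and the deposited table differ by little more than 1 factor per array. Relative to the median they had to give nearly the same values, so the 9 ways are not independent.

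**Figure D5:**
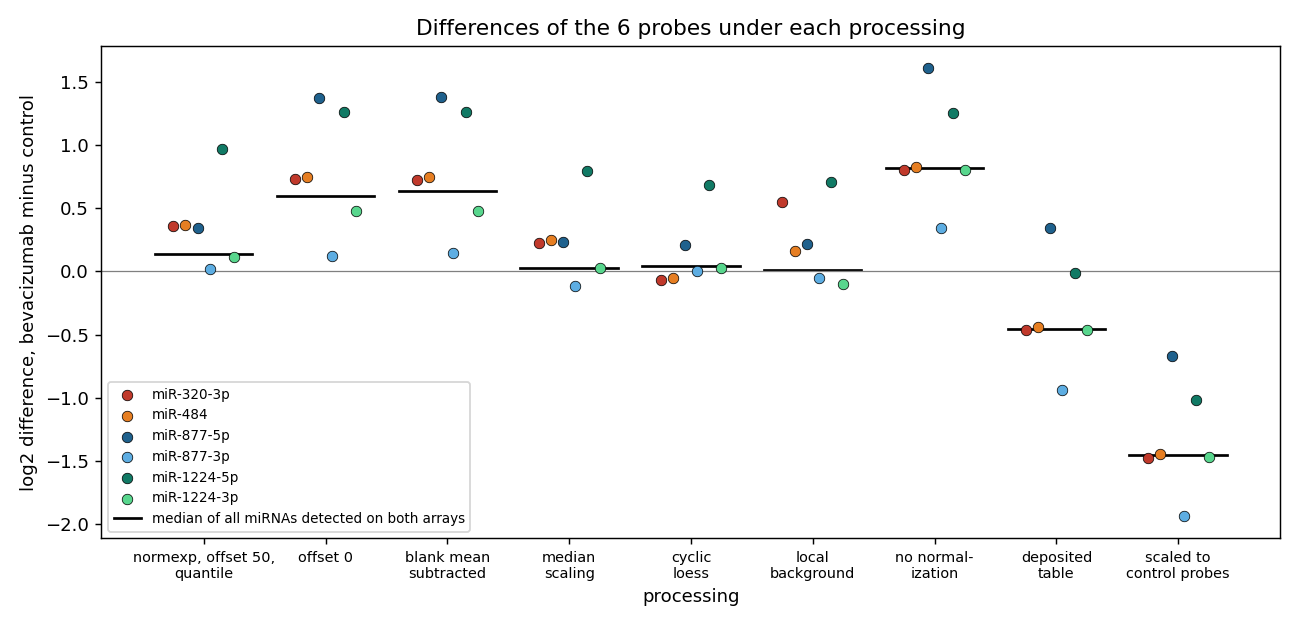
Log2 difference, bevacizumab minus control, of the 6 probes under 9 ways of processing, with the median of all 917 miRNAs as a black bar. The points move up and down with the bar: the 6 differences have a median of 0.35 in the main processing, -0.45 in the deposited table and -1.46 when scaled to the control probes.

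The local background around the spots did not move evenly. Around the miR-320-3p spot it was 180 units on the bevacizumab array and 106 units on the control array, where the median over miRNA spots was 161 units on the bevacizumab array and 69.2 on the control array. On the control array the miR-320-3p spot thus exceeded its own surroundings by 4.04 units, against 36.8 units over the blanks. The miR-1224-5p spot had a local background of 308 units on the bevacizumab array and 168 on the control array. It exceeded these surroundings by 136 units on the bevacizumab array, against 259 over the blanks. On the control array it exceeded them by 13.8 units, against 109 over the blanks. Corrected by local background in place of the blanks, miR-320-3p differed by 0.55, miR-1224-5p by 0.71 and miR-484 by 0.16, while the canonical miRNAs of the miR-320-3p window had a median of -0.17 and those of the miR-1224-5p window 0.30. Under that correction 4 of 6 members lay above the median of their canonical neighbours. Below miR-877-3p lay 6 of 19 neighbours, and below miR-1224-3p 14 of 36. The correlation with G and C content among canonical miRNAs was gone (rho -0.055).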

How the data were processed

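Total RNA labelled with Cy5 was hybridised to 1 3D-Gene array per group, per the labels. Per the file headers, the deposited scanner intensity is the spot median at 635 nm, with a local background, from 3 scan gains related by least squares; it is linear and not normalized. The authors' deposited value table is also in intensity units: the blank-subtracted spot divided by a factor per array, found by setting it against the scanner values, with dim miRNAs left empty. The labels name both tumour RNA and cells as the source. The scanner software is not stated in the labels or headers.

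A spot counted as detected above the blank mean by 2 SD, both taken without the highest and lowest 5% of the blanks. Intensities were corrected with normexp on the blank spots (limma 3.58.1, R 4.3.3, offset 50) and quantile-normalized over 1900 probes. On simulated arrays the same steps gave planted changes their planted direction. The planted changes all exceeded 2-fold and were placed only in miRNAs brighter than the dim members. The simulation was thus no check of small differences or of dim miRNAs. A fixed size of 2-fold replaced a test. The named miRNAs are the 6 members, the nearest canonical miRNA of each, the extremes of each brightness window and short lists of other Drosha-independent miRNAs and tissue markers. Members, lists and the 5 control probes were chosen with earlier results of these data known.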

Additional observations from a re-analysis of the deposited data

How the results depend on the processing

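No paired analysis was possible because each group had 1 array. The median difference of the members was 0.35 in the main processing and stayed within the repeat-spot SD of it with median scaling, a detection limit of 5 SD (which leaves out miR-877-3p) and no detection filter. It was 0.74 with an offset of 0 and 0.74 when the blank mean was subtracted, 0.82 without normalization, 0.19 with local background and 0.014 with cyclic loess, and it was below 0 in the deposited table (-0.45) and scaled to the control probes (-1.46). The median of all miRNAs moved in the same direction in each, and the cause was not tested further. The count of members at least 2-fold higher was 2 of 6, miR-877-5p and miR-1224-5p, with an offset of 0, when the blank mean was subtracted, and without normalization. The count at least 2-fold lower was 5 of 6 when scaled to the control probes. The count of members above the median of canonical miRNAs of like brightness was 4 to 6 under all alternatives. It was 4 of 5 with the detection limit of 5 SD and with G and C matching. No normalization, control-probe scaling and the deposited table differ by little more than 1 factor per array. This count could therefore hardly change among them and was 5 of 6 in each. The size of the gap followed how brightness was set. For miR-320-3p the canonical median was -1.59 when matched on the bevacizumab array alone and -0.19 when matched on the control array alone. Signal over background limits miR-877-3p most, at 8.81 units over blanks with an SD of 4.03.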
